A study of Homo sapiens with 9 samples.

Results

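The 9 genes examined encode the MHC class I antigen presentation pathway: the heavy chains HLA-B, HLA-C and HLA-E, the light chain B2M, the peptide transporter subunits TAP1 and TAP2, the immunoproteasome subunits PSMB8 and PSMB9, and the transcriptional regulator NLRC5. They were taken by symbol from the 27800 symbols of the deposited gene table, and all 9 were found. RNA had been sequenced from Huh7, an established human hepatocellular carcinoma line, in 3 libraries from cells given 5 uM FIDAS-5 for 48 h, 3 from cells given 0.5 uM JQ1 for 48 h and 3 from cells given vehicle. The solvent and the duration of the vehicle treatment are not given in the labels, and all groups were the same line in culture without other cells. FIDAS-5 inhibits MAT2A, which makes the methyl donor S-adenosylmethionine, and JQ1 blocks the bromodomains by which BET proteins bind acetylated histones. Nothing in the labels tells whether replicate libraries are independent cultures, and the spread behind each p-value may accordingly be technical. The 12 hepatocyte and hepatoma markers were all measured above the limit for testing, with summed levels of 5812 to 7512 TPM (transcripts per 1000000) in FIDAS-5 libraries, 12330 to 16690 TPM in JQ1 libraries and 5540 to 6824 TPM in vehicle libraries.

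MHC class I molecules carry peptides from inside the cell to its surface, where CD8 T cells and natural killer cells read them. Proteasomes cut cytosolic proteins into peptides, the TAP1-TAP2 transporter moves these into the endoplasmic reticulum, and tapasin and its partners load them onto a heavy chain paired with B2M. Interferon gamma raises most genes of the pathway, in part through IRF1, and NLRC5 enters the nucleus and binds a complex of RFX, CREB and NF-Y factors on class I promoters. Hepatocytes are known for low class I levels at rest, and tumours of many kinds lose parts of the pathway.

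With FIDAS-5, transcripts of the transporter, of both immunosubunits, of the heavy chains HLA-C and HLA-E and of NLRC5 were higher than with vehicle, by 2.41 to 11.7 times in the ratio of means for the 7 genes called. PSMB8, PSMB9 and NLRC5 needed the FIDAS-5 libraries to enter the test, so their calls are a description. For HLA-C, HLA-E, TAP1 and TAP2 the ratios were 2.41 to 9.955. With JQ1 the pathway split. HLA-C and HLA-E were higher than with vehicle, and TAP2 and PSMB8 were lower. B2M, at 224 TPM or more in every library, did not pass the test with either compound.

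All of the genes but B2M and NLRC5 lie in the MHC region of chromosome 6, and 4 of them are direct neighbours. In GRCh38.p14, TAP2 lies at chr6:32821831-32838739, PSMB8 at chr6:32840717-32844679, TAP1 at chr6:32845209-32853704 and PSMB9 at chr6:32854192-32859851. TAP1 and PSMB9 are read in opposite directions from starts 487 bases apart. HLA-E lies at chr6:30489509-30494194, HLA-C at chr6:31268749-31272092 and HLA-B at chr6:31353875-31357179, while B2M is at chr15:44711517-44718145 and NLRC5 at chr16:56989557-57083520. PSMB8 and TAP1 overlap the antisense gene PSMB8-AS1, and whether the counting used the strand of the reads is not given in the sources used here, so reads of these overlapping genes may not have been told apart. The class I heavy chain genes also resemble each other and pseudogenes, and their alleles differ between cell lines, so the division of reads among HLA rows is uncertain.

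The 250 bases before the annotated start are shown, from RefSeq on GRCh38.p14, for the neighbouring TAP1, PSMB9, TAP2 and PSMB8, which were far higher with FIDAS-5 than with JQ1, and beside them for HLA-C, which was higher with both compounds, and B2M, which was called with neither. Each runs 5′ to 3′ on its gene's own strand, up to the base before the start, and capitals mark matches to an interferon response motif (TTTC and, after any 2 bases, TTTC again, on either strand) or to the kappaB consensus (either strand). The windows are chr6:32853705-32853954 on the minus strand for TAP1, chr6:32853942-32854191 on the plus strand for PSMB9, chr6:32838740-32838989 on the minus strand for TAP2, chr6:32844680-32844929 on the minus strand for PSMB8, chr6:31272093-31272342 on the minus strand for HLA-C and chr15:44711267-44711516 on the plus strand for B2M.
TAP1: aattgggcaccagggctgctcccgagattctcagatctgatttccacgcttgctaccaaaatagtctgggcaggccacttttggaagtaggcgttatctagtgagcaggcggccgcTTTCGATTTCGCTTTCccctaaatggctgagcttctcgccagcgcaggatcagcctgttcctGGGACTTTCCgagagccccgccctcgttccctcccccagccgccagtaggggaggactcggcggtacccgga
PSMB9: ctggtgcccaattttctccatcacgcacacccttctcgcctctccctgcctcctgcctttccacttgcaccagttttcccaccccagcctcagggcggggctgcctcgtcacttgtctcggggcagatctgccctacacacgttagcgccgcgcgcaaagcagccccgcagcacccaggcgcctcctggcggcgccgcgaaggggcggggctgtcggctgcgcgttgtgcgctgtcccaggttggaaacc
TAP2: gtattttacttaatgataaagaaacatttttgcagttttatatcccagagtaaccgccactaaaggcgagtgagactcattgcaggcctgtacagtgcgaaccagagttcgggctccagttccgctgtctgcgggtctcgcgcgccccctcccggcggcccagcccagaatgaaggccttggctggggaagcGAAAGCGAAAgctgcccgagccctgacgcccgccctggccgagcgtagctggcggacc
PSMB8: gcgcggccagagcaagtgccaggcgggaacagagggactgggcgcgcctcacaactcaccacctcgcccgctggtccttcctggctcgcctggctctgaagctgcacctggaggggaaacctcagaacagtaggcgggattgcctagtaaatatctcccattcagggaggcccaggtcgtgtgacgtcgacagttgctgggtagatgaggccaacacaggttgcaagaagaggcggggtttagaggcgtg
HLA-C: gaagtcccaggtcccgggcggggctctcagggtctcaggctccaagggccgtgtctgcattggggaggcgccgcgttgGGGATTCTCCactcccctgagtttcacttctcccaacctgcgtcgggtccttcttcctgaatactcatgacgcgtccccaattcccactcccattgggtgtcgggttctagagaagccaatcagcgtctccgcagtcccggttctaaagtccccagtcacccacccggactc
B2M: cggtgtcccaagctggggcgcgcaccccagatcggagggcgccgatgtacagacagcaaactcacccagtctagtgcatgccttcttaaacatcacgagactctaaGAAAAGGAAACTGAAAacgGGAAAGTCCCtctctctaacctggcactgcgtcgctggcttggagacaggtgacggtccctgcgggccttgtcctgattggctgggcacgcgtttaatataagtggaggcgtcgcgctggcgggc

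The table of promoter windows held 7 of the 9 genes, among them HLA-B, and for TAP1 and PSMB8 a second window at another annotated start. Counts are over the first windows. The interferon response motif was found in 3 of these 7 windows, those of TAP1, TAP2 and B2M, against 3.02% of 35116 promoter windows of the same length. In TAP1 it lies 134 to 125 and again 128 to 119 bases before the start, in B2M 144 to 135 and 138 to 129 bases before it, each pair overlapping, and in TAP2 58 to 49 bases before it. The kappaB consensus was found in 4, those of HLA-B, HLA-C, B2M and TAP1, against 9.96% of all windows. TGACG, the core of the CREB site of class I promoters, was found in 6 of 7 windows against 21.2% of all, and ATTGG, the NF-Y box read on either strand, in 5 of 7 against 32.0%. TTCNNNGAA, the gamma-activated site, was in 0 of the 7 first windows against 6.57% of all, and was found in the second window of TAP1, 189 to 181 bases before that start, and in that of PSMB8, 65 to 57 bases before it. The motifs were chosen with these genes' sequences known, a match is a run of letters and not a bound site, and the TAP1 and PSMB9 windows share 13 bases. The B2M window carries both capitalised motifs, that of HLA-C only the kappaB one, and those of PSMB8 and PSMB9 neither. The marked TAP1 matches lie between the starts of TAP1 and PSMB9, beyond the 250 bases taken for PSMB9. Any relation of the motifs to the genes' levels was not tested.

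Among the heavy chains, HLA-C had 10.2, 8.63 and 9.53 TPM in FIDAS-5 libraries, 6.05, 6.73 and 4.71 TPM in JQ1 libraries and 3.87, 2.60 and 2.175 TPM in vehicle libraries. The 3 groups did not overlap, and the FIDAS-5 libraries were the highest. HLA-C averaged 9.46 ± 0.788 TPM with FIDAS-5 and 2.88 ± 0.884 TPM with vehicle (SD, n = 3 each), a log2 difference of 1.45 (SE 0.186, adjusted p = 0.00101, limma). All differences given here are of log2(TPM + 1), which makes them smaller than the ratio of means for genes at a few TPM. With JQ1, HLA-C averaged 5.83 ± 1.03 TPM (SD, n = 3), and its difference from vehicle was 0.83 (SE 0.186, adjusted p = 0.00769, limma). The difference between FIDAS-5 and JQ1 was 0.62 (adjusted p = 0.0292, limma), and it missed the threshold without FIDAS-5 replicate 1, 2 or 3, without JQ1 replicate 1 or 3, and without replicate 3 of both compounds, with adjusted p of 0.0535 to 0.124.

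HLA-E, which presents leader peptides of other class I chains to receptors of natural killer cells, had 10.5, 9.195 and 10.5 TPM in FIDAS-5 libraries, 10.7, 9.85 and 9.25 TPM in JQ1 libraries and 3.90, 4.86 and 3.74 TPM in vehicle libraries. Libraries of both compounds lay in the same range, about 4 TPM or more above every vehicle library. The log2 difference was 1.10 with FIDAS-5 (SE 0.130, adjusted p = 6.48e-04, limma) and 1.08 with JQ1 (SE 0.130, adjusted p = 3.20e-04, limma), each against vehicle. FIDAS-5 and JQ1 differed by 0.02, with a 95% interval of -0.28 to 0.31.

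HLA-B was low throughout. It had 1.07, 0.961 and 0.545 TPM in FIDAS-5 libraries, 0.532, 0.342 and 0.311 TPM in JQ1 libraries and 0.301, 0.245 and 0.0902 TPM in vehicle libraries. The order of the groups was that of HLA-C, without overlap, but only 1 library reached 1 TPM, and a gene had to reach 1 TPM in 3 libraries to be tested. Without that limit, the difference was 0.61 with FIDAS-5 (SE 0.128, adjusted p = 0.0214 over 23213 genes, limma) and 0.20 with JQ1 (adjusted p = 0.324, limma), each against vehicle. On TPM rescaled to protein-coding genes alone, HLA-B entered the test, at 1.19 with FIDAS-5 (adjusted p = 0.00167 over 13096 genes, limma) and 0.43 with JQ1 (adjusted p = 0.116, limma).

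B2M, the light chain shared by all class I molecules, was the most abundant of the 9 in each group. It had 542, 519 and 298 TPM in FIDAS-5 libraries, 482, 475 and 224 TPM in JQ1 libraries and 267, 360 and 265 TPM in vehicle libraries. Replicate 3 of each compound was far below the other two of its group, so that both groups overlapped vehicle. The difference from vehicle was 0.57 with FIDAS-5 (95% interval -0.19 to 1.34, adjusted p = 0.273, limma) and 0.34 with JQ1 (95% interval -0.43 to 1.10, adjusted p = 0.464, limma). Departures of genes from their group mean followed transcript GC content across 12925 genes. The Spearman coefficients for replicates 1, 2 and 3 were -0.506, -0.209 and 0.555 with FIDAS-5 and -0.654, -0.341 and 0.641 with JQ1. With vehicle they were 0.385, -0.273 and -0.139. Departures balance out within a group, so these coefficients cannot tell which library of a group is the odd one. B2M transcripts have 40.5% GC, at percentile 11.6 of those genes, whereas HLA-C with 61.4% and HLA-E with 64.7% are at percentiles 89.2 and 96.4. Without replicate 3 of both compounds the B2M difference was 0.85 with FIDAS-5 (adjusted p = 0.0147, limma) and 0.70 with JQ1 (adjusted p = 0.0146, limma). With the GC trend of each library removed, it was 0.81 (adjusted p = 0.0084, limma) and 0.50 (adjusted p = 0.0426, limma). That trend was fitted to departures from the mean of all 9 libraries, not of the group. Its removal therefore also takes out any difference between groups that follows GC content. FIDAS-5 and JQ1 differed by 0.24 (95% interval -0.53 to 1, adjusted p = 0.629, limma), with B2M higher under FIDAS-5 in each same-numbered pair. With the replicate block and the GC trend removed together, that difference was 0.31 and was called (adjusted p = 0.0163, limma). The HLA-C and HLA-E calls against vehicle held with that trend removed, at 1.17 and 0.78 with FIDAS-5 and 0.58 and 0.75 with JQ1.

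**Figure D1:**
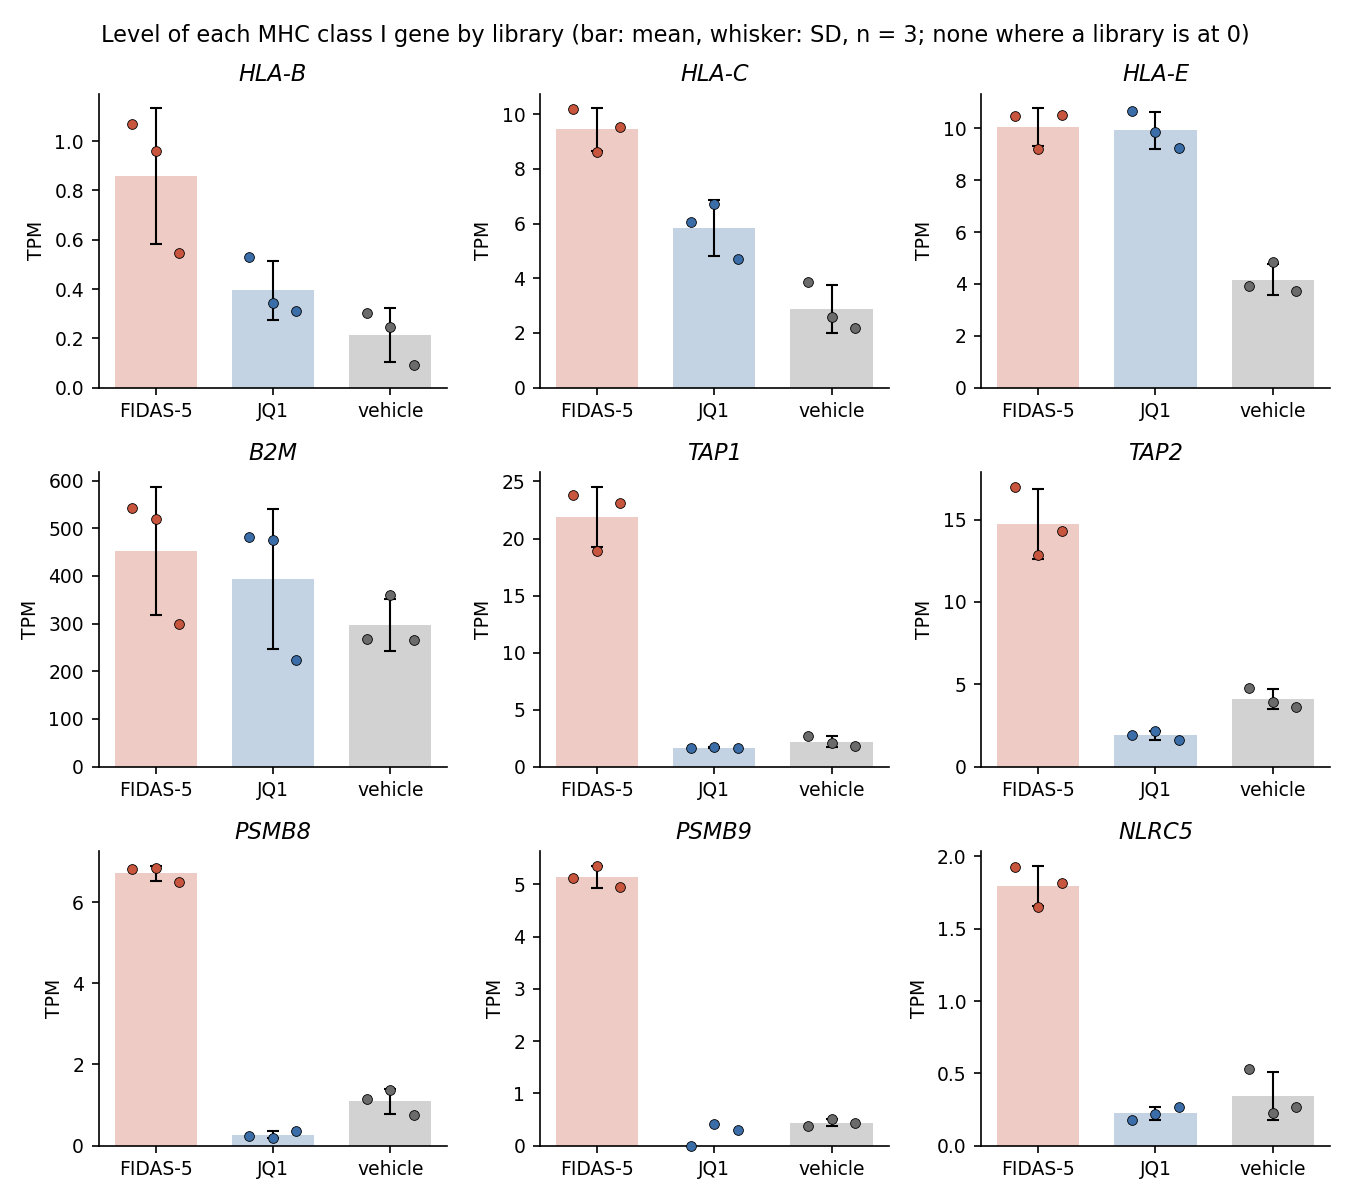
TPM of each of the 9 genes (vertical axis, linear, from 0) in FIDAS-5, JQ1 and vehicle libraries, with a point per library and bars and whiskers for mean and SD. The FIDAS-5 points of TAP1, TAP2, PSMB8, PSMB9 and NLRC5 lie above every other point, HLA-E is high with both compounds, and the replicate 3 point of B2M (rightmost) lies below its group for each compound.

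TAP1 and TAP2, which form the transporter, had the widest contrast between the compounds among the genes at 1 TPM or more in every library. TAP1 had 23.8, 18.9 and 23.1 TPM in FIDAS-5 libraries, 1.61, 1.755 and 1.67 TPM in JQ1 libraries and 2.705, 2.05 and 1.855 TPM in vehicle libraries. The lowest FIDAS-5 library was far above every other library, and the JQ1 libraries lay just under those of vehicle without overlap. TAP1 averaged 21.9 ± 2.63 TPM with FIDAS-5 and 2.20 ± 0.445 TPM with vehicle (SD, n = 3 each), a ratio of 9.955 and a log2 difference of 2.84 (SE 0.143, adjusted p = 1.10e-05, limma). Its JQ1 mean was 1.68 ± 0.0749 TPM (SD, n = 3), at a difference of -0.25 from vehicle (95% interval -0.57 to 0.07, adjusted p = 0.199, limma). With the GC trend removed that difference was -0.33 and passed the test (adjusted p = 0.0244, limma).

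TAP2 had 17.0, 12.9 and 14.3 TPM in FIDAS-5 libraries, 1.90, 2.16 and 1.61 TPM in JQ1 libraries and 4.76, 3.92 and 3.61 TPM in vehicle libraries. Here the 3 groups were fully apart, and TAP2 moved in opposite directions with the compounds. Against vehicle it rose with FIDAS-5 by 1.625 (SE 0.149, adjusted p = 1.76e-04, limma) and fell with JQ1 by 0.815 (SE 0.149, adjusted p = 0.00289, limma). The ratio of TAP1 to TAP2 TPM was 1.49 ± 0.109 in FIDAS-5 libraries, 0.897 ± 0.121 in JQ1 libraries and 0.535 ± 0.0293 in vehicle libraries (SD, n = 3 each), so the transcript in excess was TAP1 with FIDAS-5 and TAP2 with vehicle.

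PSMB8 is the immunoproteasome subunit that takes the place of PSMB5. It had 6.81, 6.83 and 6.48 TPM in FIDAS-5 libraries, 0.236, 0.194 and 0.362 TPM in JQ1 libraries and 1.14, 1.375 and 0.757 TPM in vehicle libraries. The FIDAS-5 libraries were close together at the top and the JQ1 libraries at the bottom, again with no overlap between groups. The ratio of means was 6.145 for FIDAS-5 over vehicle, and the log2 difference was 1.89 (SE 0.138). Only 2 vehicle and 0 JQ1 libraries reached 1 TPM. PSMB8 thus entered the test through the FIDAS-5 libraries, and its calls with FIDAS-5 are a description. With JQ1 the log2 difference from vehicle was -0.72 (SE 0.138, adjusted p = 0.00359, limma), and -1.70 with a pseudocount of 0.1 in place of 1.

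PSMB9, which takes the place of PSMB6, had 5.12, 5.36 and 4.94 TPM in FIDAS-5 libraries and 0.368, 0.509 and 0.442 TPM in vehicle libraries. In JQ1 libraries it was listed at 0, 0.418 and 0.296 TPM. JQ1 and vehicle libraries overlapped, and the FIDAS-5 libraries were above both by more than 4 TPM. NLRC5, the regulator of class I genes, had 1.93, 1.65 and 1.82 TPM in FIDAS-5 libraries, 0.181, 0.217 and 0.270 TPM in JQ1 libraries and 0.533, 0.227 and 0.266 TPM in vehicle libraries. It too was high with FIDAS-5 alone. Both genes reached 1 TPM in FIDAS-5 libraries only and so entered the test through that group, which means that they had to differ and their calls are a description. Against vehicle the log2 differences with FIDAS-5 were 2.09 for PSMB9 (SE 0.146) and 1.065 for NLRC5 (SE 0.125), and with a pseudocount of 0.1 they were 3.29 and 2.16. With JQ1 they were -0.23 for PSMB9 (adjusted p = 0.245, limma) and -0.13 for NLRC5 (adjusted p = 0.454, limma), and NLRC5 was called lower with the GC trend removed, at -0.29 (adjusted p = 0.0163, limma).

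Counted over all tested genes, 20.2% were called in FIDAS-5 against vehicle, 12.6% higher and 7.6% lower. Of the 9 genes of the pathway, 8 were tested, 7 were called higher and B2M was not called. PSMB8 also needed the FIDAS-5 libraries to enter the test, with 2 vehicle libraries above 1 TPM, so PSMB8, PSMB9 and NLRC5 add nothing to that count as support. In JQ1 against vehicle, 38.5% of all tested genes were called, 19% higher and 19.4% lower. HLA-C and HLA-E were called higher, TAP2 and PSMB8 lower, and B2M, TAP1, PSMB9 and NLRC5 in neither direction, which for 4 of 8 is close to that background. FIDAS-5 against JQ1 had 34.8% of genes called, 18.5% higher with FIDAS-5 and 16.4% lower. There the differences were 3.09 for TAP1 (adjusted p = 1.45e-06, limma) and 2.44 for TAP2 (adjusted p = 6.65e-06, limma). They were 2.61 for PSMB8, 2.325 for PSMB9 and 1.19 for NLRC5, and with a pseudocount of 0.1 these were 4.25, 4.26 and 2.56. In 39.3% of all tested genes the FIDAS-5 and vehicle libraries did not overlap, with FIDAS-5 higher in 20.9% and lower in 18.4%, and among the 8 this held for all but B2M, each higher. Between JQ1 and vehicle 50.7% did not overlap, 24.5% higher and 26.2% lower, and HLA-C, HLA-E, TAP1, TAP2 and PSMB8 were among them. Between FIDAS-5 and JQ1 47.6% did not overlap, 25% higher and 22.7% lower, and all of the 8 but HLA-E and B2M were among them, each higher with FIDAS-5. PSMB8, PSMB9 and NLRC5, which needed the FIDAS-5 libraries to enter the test, add nothing as support to the non-overlap counts of FIDAS-5 either. For PSMB9 and NLRC5 that outcome was fixed by the filter. Both comparisons with vehicle use the same 3 vehicle libraries, and both comparisons of FIDAS-5 use the same FIDAS-5 libraries. The median difference over all tested genes was -0.02 with FIDAS-5 and -0.01 with JQ1, each against vehicle.

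**Figure D2:**
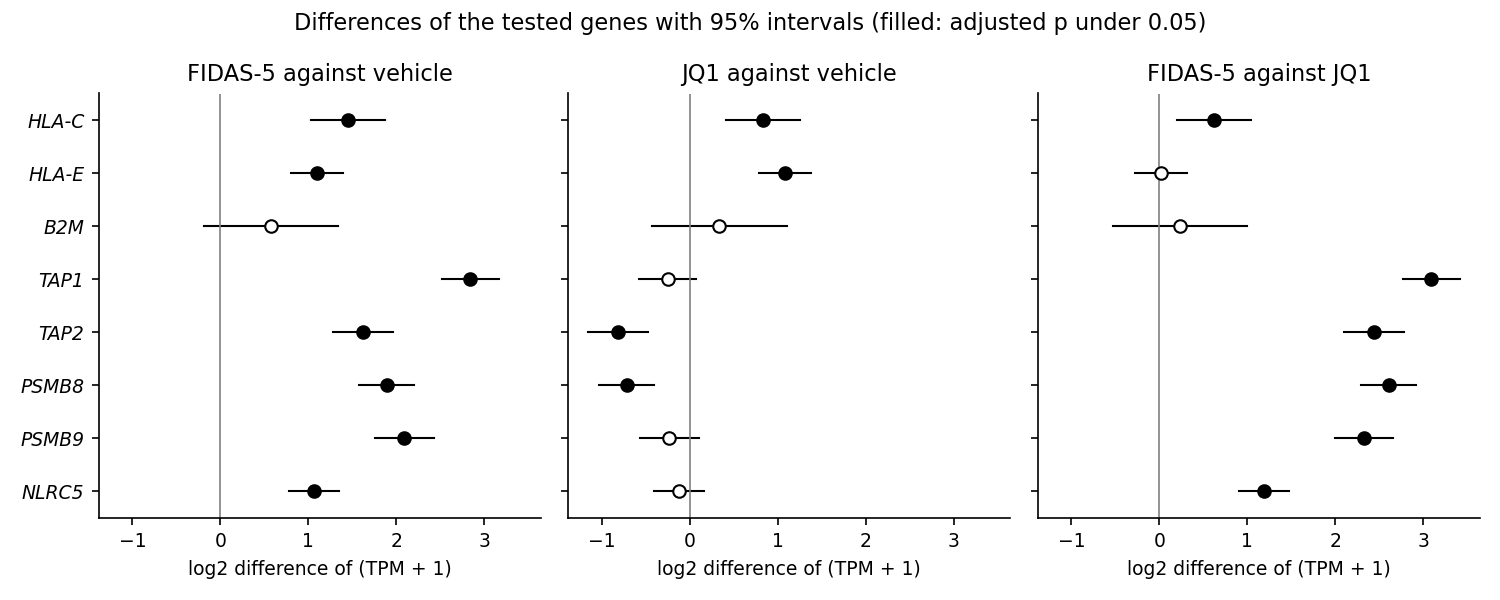
Log2 difference of (TPM + 1) with its 95% interval for the 8 tested genes in FIDAS-5 against vehicle, JQ1 against vehicle and FIDAS-5 against JQ1, with filled points for an adjusted p under 0.05. TAP1 is farthest to the right with FIDAS-5 at 2.84, TAP2 and PSMB8 lie left of 0 with JQ1, and the B2M interval crosses 0 in each panel.

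The order of levels within a group, on the TPM scale, which is per transcript length, changed with treatment. In FIDAS-5 libraries it was B2M, TAP1, TAP2, HLA-E, HLA-C, PSMB8, PSMB9, NLRC5 and HLA-B, and among neighbours only HLA-E and HLA-C overlapped. In JQ1 libraries it was B2M, HLA-E, HLA-C, TAP2, TAP1, HLA-B, PSMB8, PSMB9 and NLRC5, with overlap between TAP2 and TAP1 and from HLA-B to NLRC5. In vehicle libraries it was B2M, HLA-E, TAP2, HLA-C, TAP1, PSMB8, PSMB9, NLRC5 and HLA-B, with overlap of each neighbouring pair from HLA-E to TAP1 and from PSMB9 to HLA-B. Both transporter subunits were thus above HLA-E, HLA-C and HLA-B with FIDAS-5 and below HLA-E and HLA-C with JQ1.

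HLA-H, a class I pseudogene, averaged 5.30 ± 0.546 TPM with FIDAS-5, 1.45 ± 0.132 TPM with JQ1 and 2.39 ± 0.285 TPM with vehicle (SD, n = 3 each). It was called higher with FIDAS-5, at 0.89 (adjusted p = 0.00145, limma), and lower with JQ1, at -0.46 (adjusted p = 0.0167, limma), and without replicate 3 of both compounds the JQ1 call was lost (adjusted p = 0.0546, limma).

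The immunosubunits remained a small share of each catalytic pair at the transcript level. PSMB8 made up 5.59 ± 0.598% of PSMB8 plus PSMB5 TPM with FIDAS-5, 0.543 ± 0.187% with JQ1 and 1.10 ± 0.215% with vehicle (SD, n = 3 each). The PSMB9 share of PSMB9 plus PSMB6 ranged over 2.91 to 3.85% in FIDAS-5 libraries, 0 to 0.626% in JQ1 libraries and 0.226 to 0.317% in vehicle libraries. PSMB10, the remaining immunosubunit, made up 6.71 ± 0.911% of PSMB10 plus PSMB7 with FIDAS-5, 4.43 ± 0.937% with JQ1 and 4.14 ± 0.405% with vehicle (SD, n = 3 each). The constitutive partners moved with JQ1 rather than with FIDAS-5. PSMB5, PSMB6 and PSMB7 were all lower with JQ1 than with vehicle, at -0.98, -1.25 and -0.80 (adjusted p = 5.365e-04, 1.26e-04 and 0.00123, limma), and 0 of the 3 were called with FIDAS-5. The PSMB8 share was lower in every JQ1 library than in any vehicle library although PSMB5 was lower too, while JQ1 and vehicle overlapped in the shares of PSMB9 and PSMB10.

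**Figure D3:**
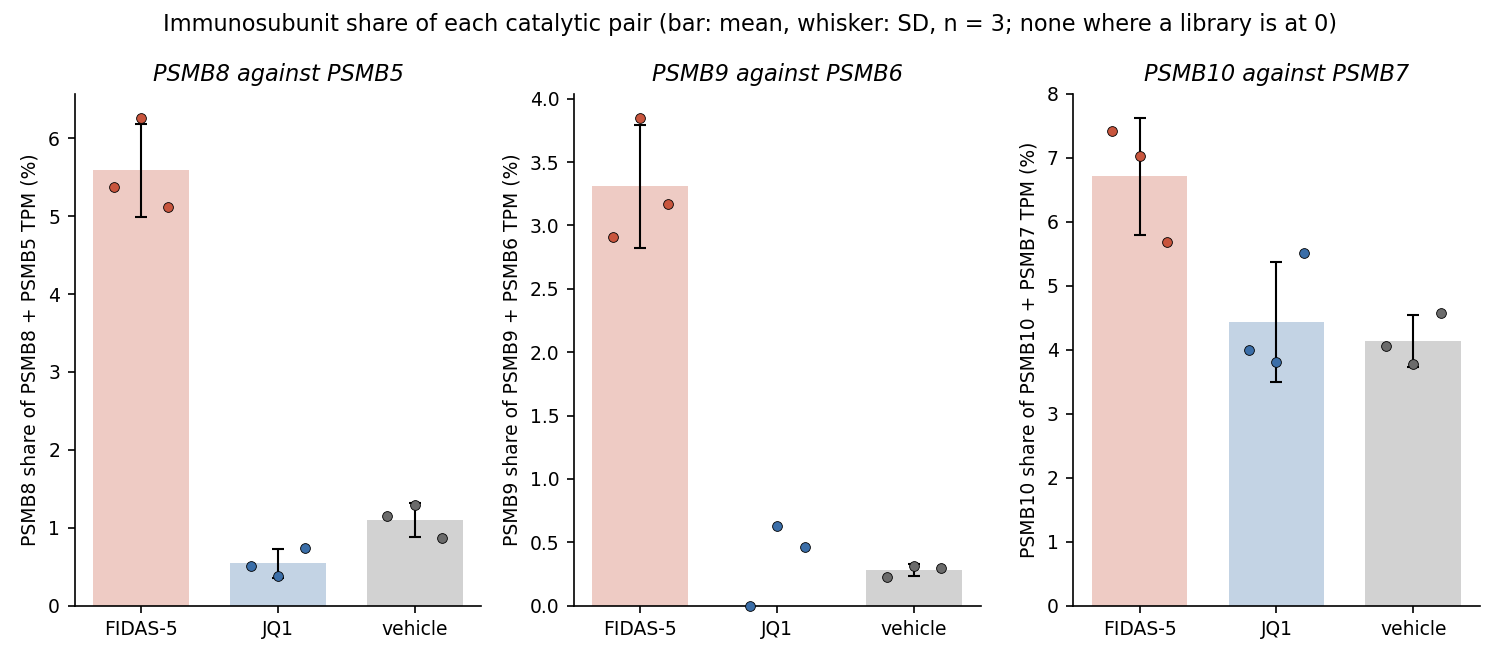
Share of PSMB8, PSMB9 and PSMB10 in the summed TPM of each immunosubunit and its constitutive partner (percent, linear axes from 0, each panel with its own scale), by library. All FIDAS-5 points lie above those of JQ1 and vehicle in the 3 panels, and none passes 10%.

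Among 10 genes of cytosolic peptide supply, 2 were higher and 0 lower with FIDAS-5, and 0 were higher and 4 lower with JQ1, with median differences of -0.18 and -0.51 from vehicle. Those are close to the shares called over all tested genes, 20.2% with FIDAS-5 and 38.5% with JQ1. Without vehicle replicate 3 the 4 lower calls with JQ1 came to 1, and without JQ1 replicate 1 or 2 to 2, and without FIDAS-5 replicate 1 the 2 higher calls with FIDAS-5 came to 1. PSMB10 averaged 7.72 TPM with FIDAS-5, 2.74 TPM with JQ1 and 4.45 TPM with vehicle, and differed from vehicle by 0.68 with FIDAS-5 (adjusted p = 0.0165, limma) and by -0.55 with JQ1 (adjusted p = 0.0222, limma). The FIDAS-5 call was lost with the GC trend removed (adjusted p = 0.123) or without FIDAS-5 replicate 1 (adjusted p = 0.0581), and the JQ1 call in 6 alternatives (adjusted p of 0.0529 to 0.0886), among them without JQ1 replicate 1 or 2 and without vehicle replicate 2 or 3. PSME1, a subunit of the PA28 activator that opens the proteasome, was higher with FIDAS-5 by 0.725 (adjusted p = 0.00246, limma). Its partner PSME2 was lower with JQ1, at -0.73 (adjusted p = 0.0127, limma), and that call was lost without vehicle replicate 3 (adjusted p = 0.0528). BLMH, a cytosolic peptidase, was lower with JQ1 at -0.63 (adjusted p = 0.0109, limma). PSME3, the nuclear activator PA28 gamma, was at -0.46 with JQ1 (adjusted p = 0.0266, limma), a call lost in 7 alternatives (adjusted p of 0.0541 to 0.0737).

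Of 8 genes of peptide loading and trimming, 7 were tested, with 2 higher and 0 lower with FIDAS-5 and 0 higher and 2 lower with JQ1, at medians of 0.36 and -0.29. Over all tested genes 20.2% and 38.5% were called. TAPBP, the tapasin that bridges the transporter and the heavy chain, had 30.5, 21.9 and 32.1 TPM in FIDAS-5 libraries, 13.2, 12.2 and 12.2 TPM in JQ1 libraries and 16.1, 7.09 and 10.7 TPM in vehicle libraries. All FIDAS-5 libraries were above the rest, and those of JQ1 lay inside the vehicle range. The difference with FIDAS-5 was 1.29 (adjusted p = 0.0085, limma). TAPBPL, a tapasin relative that edits peptides, was higher with FIDAS-5 by 0.78 (adjusted p = 0.0033, limma). With JQ1, the chaperone CALR was at -0.50 (adjusted p = 0.0112, limma). The trimming peptidase ERAP1 was at -0.82 (adjusted p = 0.0427, limma), a call lost in 8 alternatives (adjusted p of 0.056 to 0.103), among them without JQ1 replicate 2 or 3 and without any 1 of the vehicle libraries.

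The regulators upstream were mixed. Of 21 interferon and JAK-STAT signalling genes, 19 were tested, with 6 higher and 2 lower with FIDAS-5 and 4 higher and 2 lower with JQ1, at medians of 0.35 and 0.27, where 20.2% and 38.5% of all tested genes were called. With FIDAS-5 these became 4 higher and 2 lower without FIDAS-5 replicate 1, and 4 higher and 1 lower without FIDAS-5 replicate 3 or vehicle replicate 3. With JQ1 they became 8 higher and 1 lower without JQ1 replicate 3, and 3 higher and 1 lower without JQ1 replicate 1. IRF1, an activator of class I, TAP1 and PSMB9 transcription, had 11.4, 8.80 and 10.1 TPM in FIDAS-5 libraries, 3.63, 2.96 and 2.58 TPM in JQ1 libraries and 1.64, 2.14 and 2.40 TPM in vehicle libraries. Its FIDAS-5 libraries were well above all others, at 1.86 over vehicle (adjusted p = 1.18e-04, limma), and those of JQ1 were a little above vehicle, at 0.41 (adjusted p = 0.0698, limma). IRF9, the DNA-binding subunit of the interferon-activated ISGF3 complex, had 7.50, 6.78 and 7.13 TPM in FIDAS-5 libraries, 0.745, 1.35 and 0.668 TPM in JQ1 libraries and 1.80, 1.51 and 1.38 TPM in vehicle libraries, at 1.67 with FIDAS-5 (adjusted p = 1.76e-04, limma) and -0.43 with JQ1 (adjusted p = 0.0530, limma). STAT2 was higher with both compounds, at 1.02 with FIDAS-5 (adjusted p = 7.19e-04, limma) and 1.23 with JQ1 (adjusted p = 1.25e-04, limma). SOCS1, an inhibitor of JAK kinases, averaged 1.23 TPM with FIDAS-5, 2.73 TPM with JQ1 and 3.58 TPM with vehicle, and was lower with FIDAS-5 at -1.01 (adjusted p = 0.0071, limma). None of 7 interferon genes (IFNB1, IFNG, IFNL1, IFNL2, IFNL3, IFNK and IFNE) reached the limit for testing. Their highest value in any library was 0.175 TPM, and 4 of them were at 0 in all 9 libraries. The interferon alpha genes were not in this list.

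Of 8 NF-kappaB subunits and inhibitors, 4 were higher and 0 lower with FIDAS-5, and 0 were higher and 2 lower with JQ1, at medians of 0.44 and -0.24, where 20.2% and 38.5% of all tested genes were called. With FIDAS-5 the 4 came to 2 without FIDAS-5 replicate 3, where NFKBIB and NFKBIE, inhibitors of the family, lost their calls, and NFKBIE lost its call in 13 alternatives. With JQ1 the 2, RELB and NFKBIB, came to 0 without vehicle replicate 3 or JQ1 replicate 2 and to 1 without JQ1 replicate 1 or 3 or vehicle replicate 1. NFKB2, the p100 precursor of the noncanonical pathway, averaged 11.4 TPM with FIDAS-5, 1.93 TPM with JQ1 and 3.14 TPM with vehicle, at 1.59 with FIDAS-5 (adjusted p = 6.58e-04, limma) and -0.48 with JQ1 (adjusted p = 0.0753, limma). RELB, its partner, averaged 3.10 TPM with FIDAS-5, 0.353 TPM with JQ1 and 1.03 TPM with vehicle, at 1.02 with FIDAS-5 (adjusted p = 0.00443, limma) and -0.57 with JQ1 (adjusted p = 0.0324, limma), and the JQ1 call was lost in 7 alternatives (adjusted p of 0.051 to 0.108), among them without JQ1 replicate 2 or 3 and without vehicle replicate 1 or 3. RELB reached 1 TPM in 0 JQ1 and 2 vehicle libraries and so entered the test through FIDAS-5, which makes its FIDAS-5 call a description. Of 9 class I promoter factors, 7 were tested, with 1 higher and 0 lower with FIDAS-5 and 0 higher and 1 lower with JQ1, below the shares over all tested genes. RFX5, a DNA-binding part of the complex NLRC5 acts through, was at 0.65 with FIDAS-5 (adjusted p = 0.0180, limma), a call lost without any 1 of the FIDAS-5 libraries or without vehicle replicate 3 (adjusted p of 0.0511 to 0.0700). RFXANK, a partner of RFX5, was at -0.84 with JQ1 (adjusted p = 0.00163, limma).

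**Figure D4:**
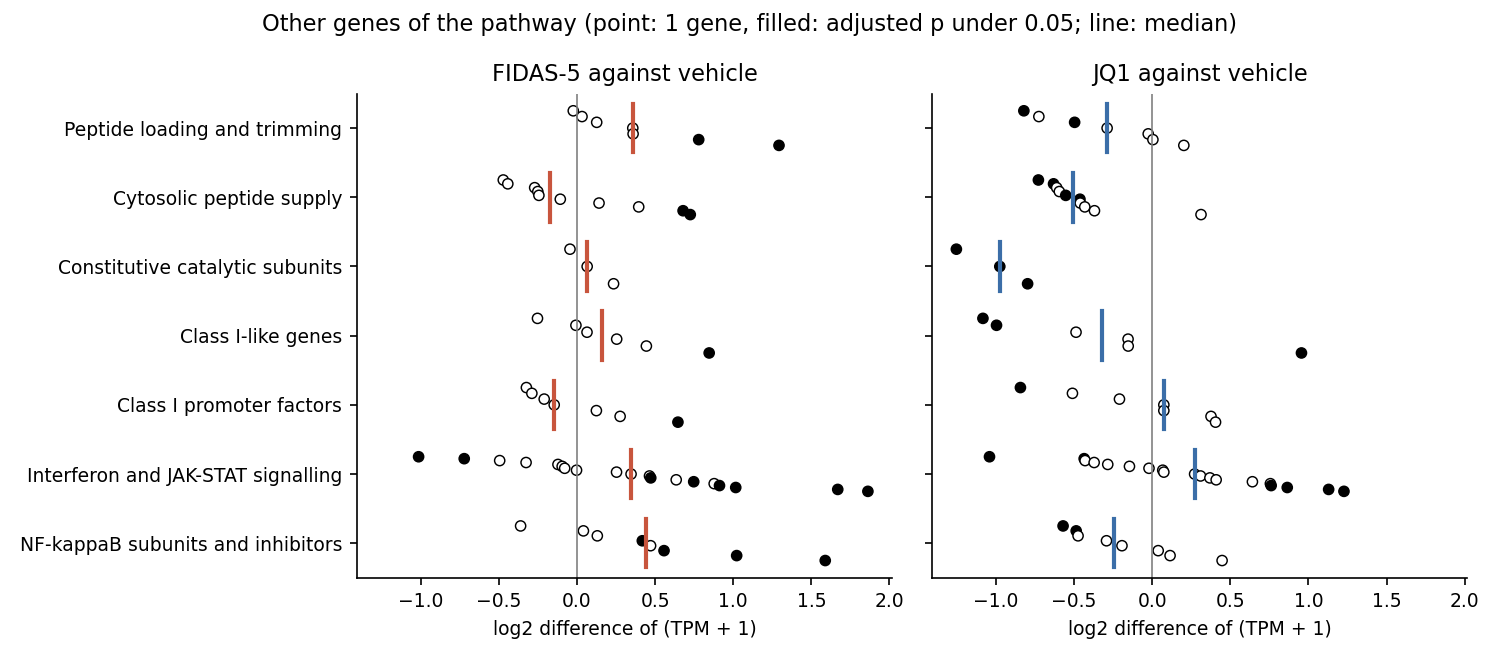
Log2 difference of (TPM + 1) for the tested genes of 7 lists around the class I pathway, in FIDAS-5 against vehicle and JQ1 against vehicle, with a point per gene, filled where the adjusted p was under 0.05, and a line at the list's median. The 3 constitutive catalytic subunits lie left of 0 with JQ1, and every filled NF-kappaB point lies right of 0 with FIDAS-5 and left of it with JQ1.

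The neighbourhood of TAP1 was followed from HLA-DOB to HLA-DOA, a stretch of 196.8 kb chosen after its values were seen, with 11 symbols of which 9 were tested. With FIDAS-5, TAP2, PSMB8, TAP1, PSMB9, HLA-DMB and HLA-DMA were higher than with vehicle, and the lncRNA row LOC100294145, at 0.04, and BRD2, at 0.52 (adjusted p = 0.0620, limma), were not called. PSMB8-AS1, which overlaps PSMB8 and TAP1, was at 0.32 with FIDAS-5 (adjusted p = 0.251, limma) and 0.26 with JQ1 (adjusted p = 0.291, limma). With JQ1, BRD2, which encodes a BET protein, was at 0.92 (adjusted p = 0.0030, limma) and LOC100294145 at -1.215 (adjusted p = 0.00263, limma). HLA-DMA and HLA-DMB form the class II peptide exchanger. HLA-DMB had 14.7, 14.8 and 13.1 TPM in FIDAS-5 libraries, 0.998, 0.801 and 1.185 TPM in JQ1 libraries and 3.35, 3.27 and 2.96 TPM in vehicle libraries. Like TAP2 and PSMB8 it was highest with FIDAS-5 and lowest with JQ1 with no overlap, at 1.855 (adjusted p = 3.75e-05, limma) and -1.075 (adjusted p = 2.48e-04, limma) from vehicle. HLA-DMA averaged 3.72 ± 0.589 TPM with FIDAS-5, 0.346 ± 0.125 TPM with JQ1 and 0.500 ± 0.257 TPM with vehicle (SD, n = 3 each). It was at 1.66 with FIDAS-5 and -0.15 with JQ1, and entered the test through the FIDAS-5 libraries. The other 16 class II symbols stayed at or under 0.745 TPM, 10 of them at 0 in all libraries, and CIITA, the class II regulator, had at most 0.178 TPM.

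**Figure D5:**
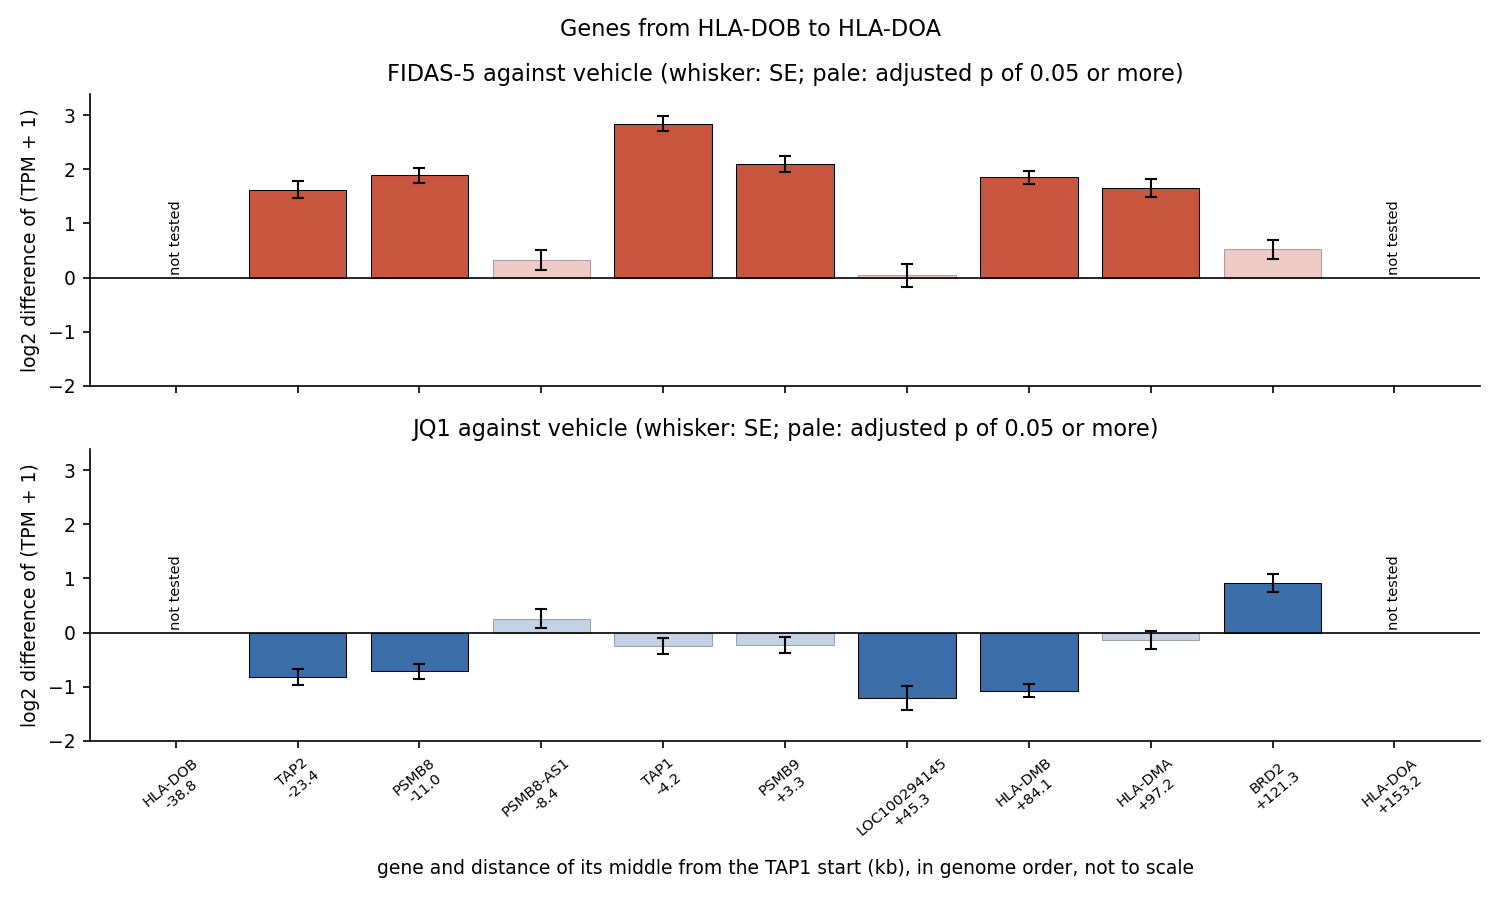
Log2 difference of (TPM + 1) from vehicle, with SE, for the genes from HLA-DOB to HLA-DOA in genome order, for FIDAS-5 (upper) and JQ1 (lower), pale where the adjusted p was 0.05 or more. TAP2, PSMB8, TAP1, PSMB9, HLA-DMB and HLA-DMA stand between 1.625 and 2.84 with FIDAS-5, with PSMB8-AS1 and LOC100294145 among them near 0.

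Some markers of leukocytes, which carry high class I levels, moved with the same contrast. Of 12, 4 were tested, and 3 were higher and 0 lower with FIDAS-5 and 0 higher and 2 lower with JQ1, against vehicle. Over all tested genes 20.2% and 38.5% were called. Their summed level was 254 to 313 TPM in FIDAS-5 libraries, 19.3 to 28.3 TPM in JQ1 libraries and 115 to 142 TPM in vehicle libraries. Most of it was LYZ, at 227 to 283 TPM, 9.89 to 14.9 TPM and 102 to 125 TPM in that order of groups. CD68 averaged 6.99 TPM with FIDAS-5, 2.13 TPM with JQ1 and 3.71 TPM with vehicle, called higher with FIDAS-5 and lower with JQ1. LCP1 averaged 16.9, 7.16 and 7.58 TPM in that order, called higher with FIDAS-5 and not called with JQ1. CD14, the remaining tested marker, averaged 1.98, 1.93 and 2.40 TPM in that order and was called with neither compound. Its FIDAS-5 libraries all lay below those of vehicle. Other markers of the list were low, with PTPRC at 0.918 TPM or less, CD3E at 0.358 TPM or less and TYROBP at 0 in every library. Of 5 endothelial markers, the 1 tested, PECAM1, moved alike, with the summed level at 15.4 to 16.6 TPM with FIDAS-5, 1.35 to 1.64 TPM with JQ1 and 6.58 to 9.87 TPM with vehicle, and CDH5 was at 0 in all. The part of these transcripts in the class I differences was not tested. In RNA from whole cultures, a change in the share of cells expressing a gene and a change in RNA per cell cannot be told apart.

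The genes whose pattern over the 9 libraries was most like the mean of the 8 tested class I genes, among 7893 with a mean of at least 5 TPM, were SMIM3, FBXO2, APOC1, SLC39A5 and PXDC1. Their root mean square distance from that mean pattern was 0.117, 0.141, 0.149, 0.155 and 0.171 on the log2 scale. In JQ1 libraries the mean pattern was at 0.029, 0.118 and -0.107 from the vehicle mean. It averages there over HLA-C and HLA-E, which were higher, and TAP2 and PSMB8, which were lower, so it hides that split. SMIM3 averaged 12.9 ± 1.33 TPM with FIDAS-5, 3.94 ± 0.454 TPM with JQ1 and 3.49 ± 0.541 TPM with vehicle (SD, n = 3 each), and APOC1, an apolipoprotein made by hepatocytes, averaged 803 ± 64.5 TPM, 325 ± 20.7 TPM and 303 ± 16.5 TPM in that order of groups.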

How the data were processed

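Total RNA of Huh7 cells was sequenced in 9 libraries, 3 per group. TPM values for each gene symbol were deposited, which per the submitters' processing notes come from Salmon on hg38. The Salmon version, annotation and strand setting are not given in the sources used here. Each library sums to about 1000000 TPM over 27800 symbols, of which protein-coding genes held 27.7 to 34.1%. TPM keeps no read counts, so depth and counting error are unknown.

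Values were taken as log2(TPM + 1), and genes reaching 1 TPM in 3 or more libraries were tested (13573). The 3 group means were estimated from all 9 libraries together in limma 3.58.1 (R 4.3.3), using two-sided tests and Benjamini-Hochberg adjustment over all tested genes at a threshold of 0.05. With 3 libraries against 3, an exact permutation test of a single gene cannot go below p = 0.10. The pseudocount of 1 makes differences of low genes smaller. The script was tested on simulated data. Python 3.11.15 and matplotlib 3.10.9 drew the figures.

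The 9 genes and the other lists were chosen with earlier results of these data known. Genes named were the 9, any gene of those lists and the 5 most like them in pattern. Lists are described by counts and medians only, and results of some genes are not given here. Alternatives were a pseudocount of 0.1, other filters and scalings, GC trend removal, the replicate number as a block and leaving out libraries. GC trends were fitted to departures from the mean of all 9 libraries, so differences between groups that follow GC are removed too. Deviations of same-numbered FIDAS-5 and JQ1 libraries from their group means correlated in all 3 pairs (0.26, 0.102 and 0.422). The tests given leave this pairing out in every comparison, except where the replicate block is named.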

Additional observations from a re-analysis of the deposited data

How the results depend on the processing

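Over 21 alternatives, 24 differences of the 8 tested genes gave 498 values, of which 474 kept direction and side of the threshold. HLA-C in FIDAS-5 against JQ1 missed the threshold in 6, and 12 values newly passed one. Signs turned in 6 uncalled values: NLRC5 in JQ1 against vehicle under quantile normalization (0.14), HLA-E in FIDAS-5 against JQ1 without replicate 3 of both compounds (-0.059) and without 1 library (range -0.028 to 0.074), and B2M in FIDAS-5 against JQ1 without JQ1 replicate 3 (range without 1 library -0.13 to 0.512). With the GC trend removed, 7 of the 8 genes were called in JQ1 against vehicle in place of 4, with 4 lower in place of 2, while the share called over all genes went up as well, to 54.0% in place of 38.5%. The lists then had 1 higher and 2 lower with FIDAS-5 and 6 lower with JQ1 for peptide supply, 4 higher with FIDAS-5 and 3 lower with JQ1 for loading, 9 higher and 4 lower with FIDAS-5 and 9 higher and 5 lower with JQ1 for interferon signalling, and 2 higher with FIDAS-5 and 4 lower with JQ1 for NF-kappaB. The cause of these changes was not tested. Leaving out 1 library in turn gave 7 to 7 calls for FIDAS-5 and 4 to 4 for JQ1 against vehicle, and 5 to 6 for FIDAS-5 against JQ1.

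The replicate number as a block left 7, 4 and 6 of the 8 genes called in those comparisons, and with GC removal as well 8 were called for JQ1, 5 of them lower. The block changed no other call of the 8 genes in FIDAS-5 against JQ1 than that of B2M given above, which needed GC removal too. For each compound with vehicle, the deviations of same-numbered libraries correlated at -0.076 to 0.16. In every comparison the block was an alternative only. Over all genes the block gave 2891, 5544 and 5052 calls, against 2742, 5219 and 4726 without it. FIDAS-5 against vehicle had 4389 calls with the GC trend removed, 4719 with the block as well, 1640 without FIDAS-5 replicate 3 and 1639 without vehicle replicate 3. Depth is unknown, which limits statements on genes under about 1 TPM.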

Other observations

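Genes that set how natural killer and T cells read a class I-bearing cell were also measured. Of 11 class I-like genes, 6 were tested, with 1 higher and 0 lower with FIDAS-5 and 1 higher and 2 lower with JQ1, against vehicle, where 20.2% and 38.5% of all tested genes were called. FCGRT, the B2M-binding receptor that recycles albumin and IgG, was higher with both, at 0.85 with FIDAS-5 (adjusted p = 0.0041, limma) and 0.955 with JQ1 (adjusted p = 0.00114, limma). HFE, a regulator of iron uptake that also pairs with B2M, was at 0.25 with FIDAS-5 and lower with JQ1 at -1.08 (adjusted p = 0.0041, limma). ULBP2, a ligand of the activating receptor NKG2D, was at 0.06 with FIDAS-5 and lower with JQ1 at -0.997 (adjusted p = 0.00135, limma).

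Of 7 inhibitory ligands, 3 were tested, with 2 higher and 0 lower with FIDAS-5 and 0 called with JQ1, where 20.2% and 38.5% of all tested genes were called. CD276, the most abundant of the 3, was not called, at 0.19 with FIDAS-5 (adjusted p = 0.718, limma) and 0.60 with JQ1 (adjusted p = 0.155, limma). PVR, a ligand of TIGIT, had 28.9, 23.8 and 26.7 TPM in FIDAS-5 libraries, 16.1, 16.4 and 14.7 TPM in JQ1 libraries and 16.8, 12.02 and 12.98 TPM in vehicle libraries, a log2 difference of 0.89 with FIDAS-5 (adjusted p = 0.0036, limma). NECTIN2, of the same family, was higher with FIDAS-5 by 0.98 (adjusted p = 0.0054, limma). CD274, which encodes PD-L1, had at most 0.166 TPM in any library.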
